A study of Homo sapiens with 105 samples.

Results

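MHC class I antigen presentation was followed through 9 genes that were chosen by name for their place in the pathway: B2M, HLA-B, HLA-C, HLA-E, TAP1, TAP2, TAPBP, PSMB8 and PSMB9. They are 9 of the 63241 genes in a table of raw RNA-seq read counts from Caco-2 cells, a human colon carcinoma line widely used as a model of the intestinal epithelium. The cells were exposed to bacterial extracellular vesicles (BEVs), or were transfected with the RNA taken from such vesicles, and were harvested after 10 and 24 h and, for Lacticaseibacillus casei and its controls, after 48 h.

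The vesicle groups received outer membrane vesicles of Proteus mirabilis (PmOMV), membrane vesicles of Enterococcus faecalis (EfMV) or membrane vesicles of L. casei (LcMV), and the RNA groups received 2 ng PmRNA, 5 ng EfRNA or 100 ng LcRNA with Lipofectamine. Vesicle cells were set against PBS, and RNA cells against the same amount of a non-targeting siRNA (ANC2, ANC5 and ANC100). The P. mirabilis groups had a further reference in endotoxin, which was added to the medium (LPSinc, labelled 0.2 ng per µl) or transfected (LPStrans, labelled 1 ng per µl). The methods of the study give the LPS unit per ml, so the LPS dose is uncertain. Vesicle doses also differed between species, at 6.0e9 particles for PmOMV, 7.5e9 for EfMV and 1.5e11 for LcMV. Of the libraries of the 28 groups, the 39 of flow cell 1, lanes 2 to 4, were set aside. Each library was correlated with the mean profile of each time and replicate number among kept libraries, over 1500 variable genes. The best-matching profile was of the labelled time for 12 of these 39 libraries, against 65 of the other 66. The 66 libraries kept (20 groups of 2, 6 groups of 3 and 2 groups of 4) held 632659 to 8558755 counts each, with a median of 5563438. The labels do not say whether numbered replicates were separate cultures, so p-values measure only the spread between these libraries, which may be technical.

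Cells show samples of their own proteins on the surface through MHC class I. The proteasome cuts proteins into peptides, and PSMB8 and PSMB9 are catalytic subunits of its inducible form, the immunoproteasome. The transporter made of TAP1 and TAP2 carries peptides into the endoplasmic reticulum, where tapasin (TAPBP) bridges the transporter to empty class I molecules and helps to load them. The molecule is a heavy chain joined to the light chain beta-2-microglobulin (B2M). HLA-B and HLA-C are classical heavy chains, read by T cells and, for HLA-C in particular, by killer cell receptors, and HLA-E is a non-classical heavy chain that mostly presents signal peptides of other heavy chains to NKG2A receptors. Interferons and NF-kB are the best known inducers of these genes. B2M lies on chromosome 15 (44711358 to 44718851, + strand, GRCh38), and the other 8 members lie on chromosome 6, between HLA-E (30489509 to 30494194, + strand) and TAPBP (33299694 to 33314284, - strand).

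The promoters share elements that the gene list was not chosen on. RefSeq promoters (GRCh38.p14, 250 bases before to 50 after the start) were found for 8 of the 9 members. None was matched for HLA-E, so its promoter was not searched for any motif. The ISRE core, GAAA, any 2 bases and GAAA, to which interferon-activated factors bind, was present on one strand or the other in 5 of the 8 (B2M, PSMB8, TAP1, TAP2 and TAPBP), and in 3.57% of 35116 promoters of the same length. A match to the NF-kB consensus was present in 5 of the 8 (B2M, HLA-B, HLA-C, TAP1 and TAPBP), and in 5.91% of all promoters. The GAS core TTCNNNGAA was present in 2 of 8 (PSMB8 and TAP1) and in 7.66% of all promoters. PSMB8 and TAP1 had 2 promoters each and counted if either matched, whereas the shares are per promoter. Both GAS matches and the ISRE core of PSMB8 were in the second promoter only. TAPBP, B2M and TAP1 hold both the ISRE core and the NF-kB match. HLA-B and HLA-C hold the NF-kB match and no match to this exact ISRE core. Looser forms of the core were not searched. The 200 bases upstream of the start are printed for TAPBP, B2M, HLA-B and HLA-C, with ISRE core and NF-kB matches in capitals. They lie at chr6:33314079-33314278 (- strand) for TAPBP, chr15:44711317-44711516 (+ strand) for B2M, chr6:31357180-31357379 (- strand) for HLA-B and chr6:31272093-31272292 (- strand) for HLA-C.
TAPBP: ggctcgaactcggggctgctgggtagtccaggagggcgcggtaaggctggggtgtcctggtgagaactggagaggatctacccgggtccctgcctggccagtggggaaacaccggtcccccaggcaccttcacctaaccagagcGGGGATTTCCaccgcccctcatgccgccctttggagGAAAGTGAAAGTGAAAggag
B2M: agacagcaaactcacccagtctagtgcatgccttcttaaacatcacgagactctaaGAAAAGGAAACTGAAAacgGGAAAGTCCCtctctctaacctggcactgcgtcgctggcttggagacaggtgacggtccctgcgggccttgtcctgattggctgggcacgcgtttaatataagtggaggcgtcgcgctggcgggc
HLA-B: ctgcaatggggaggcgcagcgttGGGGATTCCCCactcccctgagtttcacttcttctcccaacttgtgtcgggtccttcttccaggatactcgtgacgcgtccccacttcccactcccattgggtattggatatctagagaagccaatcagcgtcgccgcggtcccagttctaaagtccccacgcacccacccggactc
HLA-C: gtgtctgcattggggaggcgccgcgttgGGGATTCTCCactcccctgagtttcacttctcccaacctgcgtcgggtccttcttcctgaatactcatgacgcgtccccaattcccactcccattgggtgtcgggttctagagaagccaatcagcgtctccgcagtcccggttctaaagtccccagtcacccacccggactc
In TAPBP a pair of overlapping ISRE cores begins 20 and 14 bases before the start, and the NF-kB match 56 bases before it. In B2M the pair of ISRE cores begins 144 and 138 bases before the start, with the NF-kB match on the other strand at 125 bases. PSMB9 and TAP1 start 488 bases apart on opposite strands. A match is a description of these letters, and no binding was measured.

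The level of the members in Caco-2 cells fell into 2 tiers. Levels were taken as CPM (counts per 1e+06 counts, scaled by TMM factors) and, to compare genes, as CPM per kb of exon that no other gene shares. By this measure HLA-C was highest at a median of 37.0 CPM per kb over the 66 libraries. B2M followed at 30.7, TAPBP at 22.1, HLA-E at 19.2 and HLA-B at 16.3. The order among these 5 depends on the length used, which joins the exons of all transcripts. For B2M it was 3121 bases, where the longest coding transcript has 1081, and for HLA-C 2507, where it has 1554. Without the length, TAPBP had a median of 116 CPM, B2M 95.7 and HLA-C 92.7. The transporter and immunoproteasome genes were far lower, with TAP2 at 1.08 CPM per kb, PSMB8 at 1.07, TAP1 at 0.849 and PSMB9 at 0.0882. The 5 upper genes had at least 20 counts in every library, whereas PSMB9 had 0 to 8 counts and was at 0 in 16 of 66 libraries. PSMB9 did not reach the minimum count for testing, and the other 8 members were tested. Several levels carry reads that other genes could share, since the counting was not stated to use strand: HLA-B shares 47.3% of its exon bases with DHFRP2 and other genes, TAPBP 21% with an antisense transcript, TAP2 19.5% with a read-through gene, and PSMB8 and TAP1 17.3% and 14.2% with PSMB8-AS1.

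**Figure D1:**
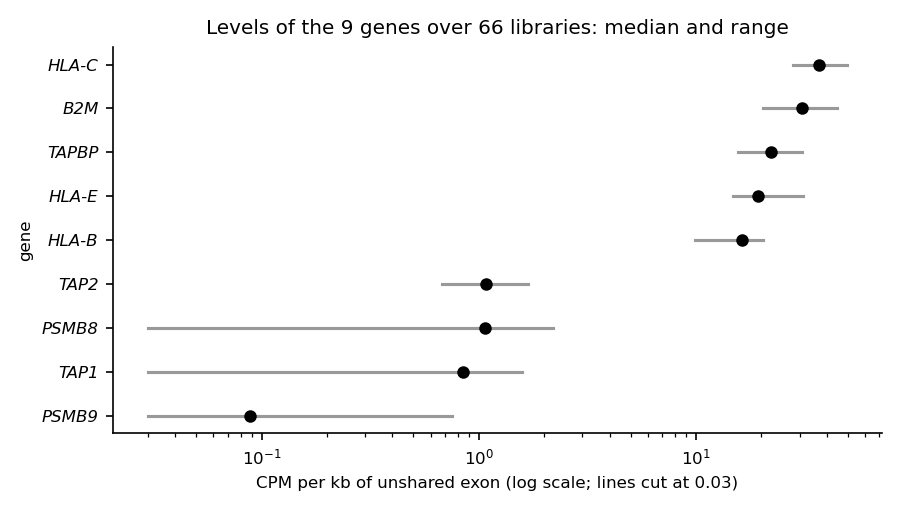
Level of each of the 9 genes over the 66 kept libraries, in CPM per kb of unshared exon on a log axis, with the median as a point and the range as a line (lines are cut at 0.03 where a library was at 0). HLA-C, B2M, TAPBP, HLA-E and HLA-B lie highest, with medians of 16.3 to 37.0 CPM per kb, and TAP2, PSMB8, TAP1 and PSMB9 lie lower, with medians of 0.0882 to 1.08.

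Whether P. mirabilis OMVs changed these genes was asked first against PBS at 10 h. HLA-E and TAPBP rose, 2 of the 8 members tested, where 1.09% of the 19233 genes tested were called in either direction and 0.499% were higher (edgeR quasi-likelihood test, Benjamini-Hochberg adjusted p under 0.05, here and below). B2M, the light chain, had an estimate as large as that of TAPBP but was not called. The classical heavy chains HLA-B and HLA-C, the transporter and the immunoproteasome subunit PSMB8 were not called. The members' median log2 fold change was 0.28, beside 0.0013 over all genes tested, and 7 of 8 estimates were above 0.

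HLA-E had 90.7, 69.2 and 59.6 CPM in the PmOMV libraries (replicates 2, 3 and 4) at 10 h, against 56.5 and 47.7 CPM in the PBS libraries (replicates 2 and 3). All 3 PmOMV libraries lay above both PBS libraries, and each was the highest of its replicate number at 10 h, of 12 groups for replicates 2 and 3 and of 5 groups for replicate 4. The log2 fold change was 0.54 ± 0.096 (SE), or 1.45-fold (95% interval 1.28 to 1.66, adjusted p = 0.000158), and the log2 ratio was 0.68 in replicate 2 and 0.54 in replicate 3. In bulk RNA a change in the number of cells that express a gene and a change in RNA per cell cannot be told apart.

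TAPBP had 122, 138 and 141 CPM in the PmOMV libraries at 10 h, against 97.2 and 110 CPM in the PBS libraries. The groups did not overlap, and tapasin too was the highest of its replicate number in all 3 PmOMV libraries. It rose by 0.32 ± 0.079 on the log2 scale, or 1.25-fold (1.12 to 1.39, adjusted p = 0.0231), with a log2 ratio of 0.33 in both replicate pairs. B2M had 96.5, 116 and 120 CPM in the PmOMV libraries, against 63.2 and 99.5 CPM in the PBS libraries. Its groups overlapped, the PBS libraries stood far apart from each other, and the estimate of 0.32 ± 0.091 had an adjusted p of 0.0527.

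HLA-B and HLA-C had no such offset. HLA-C had 81.2, 104.5 and 89.4 CPM in the PmOMV libraries, against 84.2 and 97.6 CPM in the PBS libraries, and HLA-B had 41.4, 44.5 and 39.6 CPM against 41.05 and 38.4 CPM. The PmOMV and PBS libraries of both genes were interleaved. The intervals of the fold change were 0.868 to 1.10 for HLA-C and 0.895 to 1.31 for HLA-B, so that a rise of the size seen for HLA-E lay outside both. TAP1, TAP2 and PSMB8 were too thinly counted for that statement, with log2 fold changes of 0.09 ± 0.32, 0.25 ± 0.21 and 0.37 ± 0.39. PSMB9 had 2, 7 and 2 counts in the PmOMV libraries and 0 in both PBS libraries, which allows a level in PBS of up to 0.31 CPM over the group. The PmOMV level of 0.54 CPM was 1.74-fold that floor. With the counting error of both groups taken in, the lower bound of the PmOMV to PBS ratio was 1.19. This bound leaves out the spread between libraries. The LPSinc libraries at 10 h had 5 and 2 counts, and at 24 h PSMB9 had 3 counts over the PmOMV libraries against 4 over the PBS libraries.

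**Figure D2:**
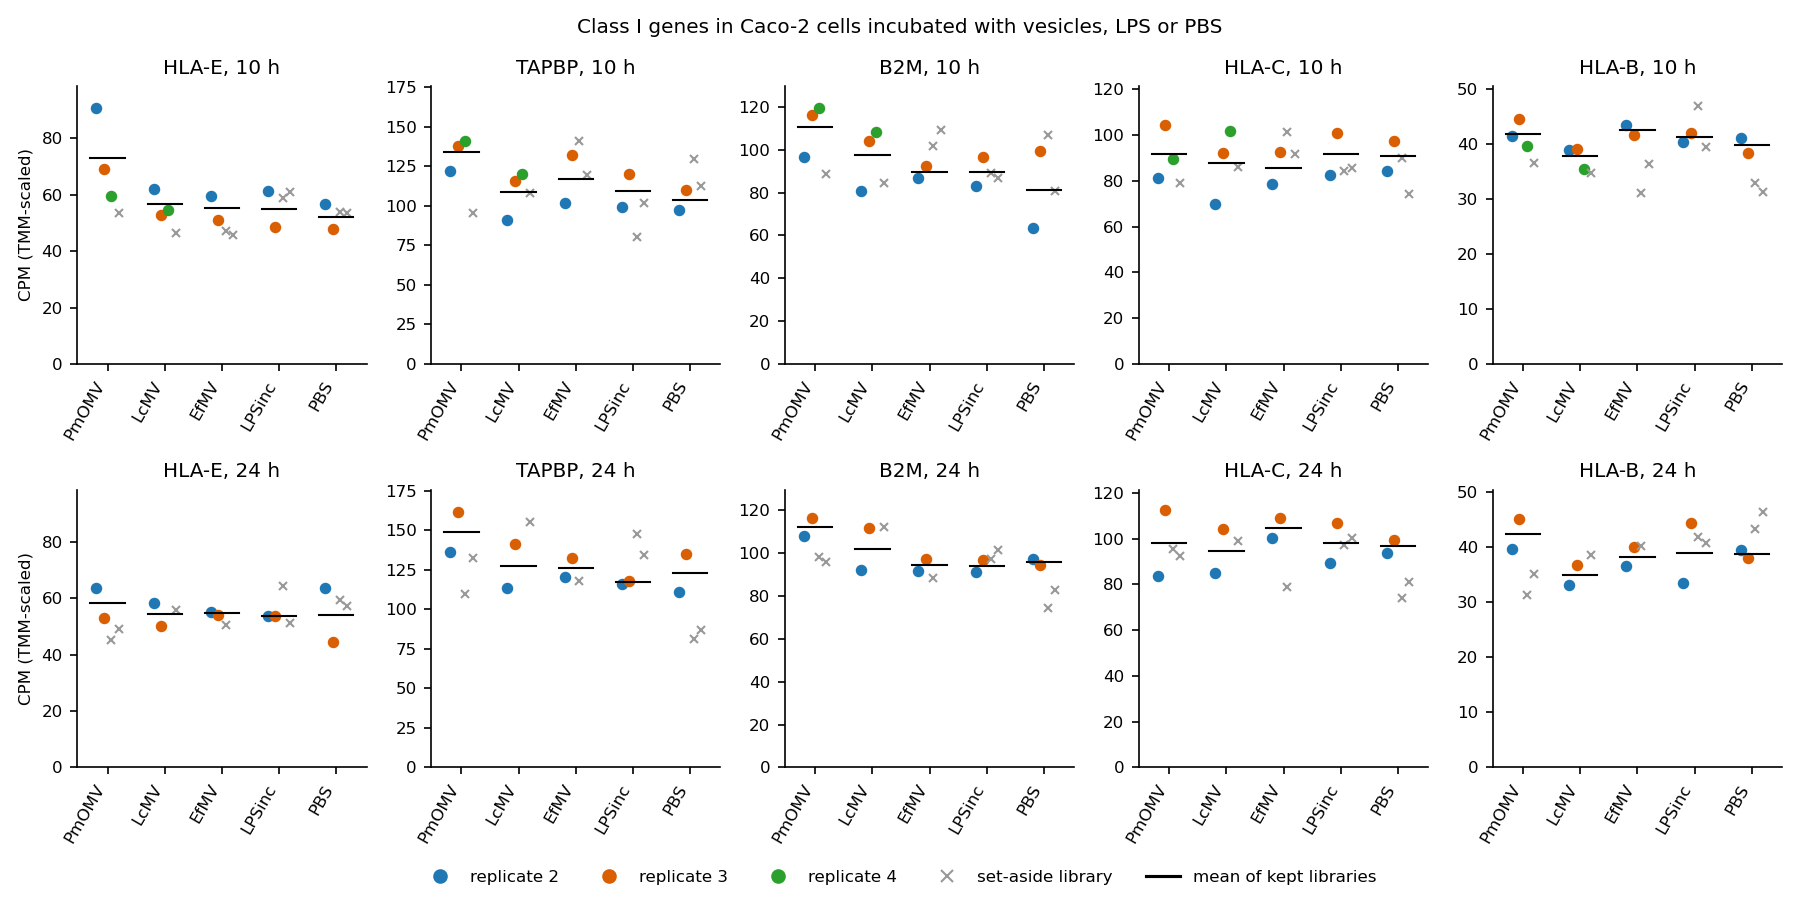
CPM of the 5 well-counted members in each library of the PmOMV, LcMV, EfMV, LPSinc and PBS groups at 10 h (upper panels) and 24 h (lower panels), with kept libraries as points coloured by replicate number, set-aside libraries as crosses and the mean of the kept libraries as a line. At 10 h the 3 kept PmOMV libraries lie above both kept PBS libraries for HLA-E (59.6 to 90.7 against 47.7 to 56.5 CPM) and TAPBP (122 to 141 against 97.2 to 110 CPM).

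Beside the members, 46 genes of the pathway and its regulators were listed and 37 were tested. In PmOMV against PBS cells at 10 h, 2 of the 37 rose, IFNGR1 among them, and 0 fell. IFNGR1, a chain of the interferon-gamma receptor, had 98.7, 80.9 and 70.4 CPM in PmOMV libraries, against 69.1 and 53.2 CPM in PBS libraries, and rose by 0.51 ± 0.093 (adjusted p = 0.000251). All 3 PmOMV libraries exceeded both PBS libraries. Of the interferon genes, IFNB1 and IFNG had 0 counts in all 66 libraries and IFNL1 had 0 to 2 counts and was at 0 in 59. Of class II genes, HLA-DRA had 0 counts in all 66, whereas the invariant chain CD74 (median 43.3 CPM), the transactivator CIITA (24.2 CPM) and HLA-DMA (3.31 CPM) were detected. The summed level of the epithelial markers was 8534 to 9467 CPM in the PmOMV libraries, against 8179 to 8776 CPM in the PBS libraries, and that of the markers of other cell types 53.6 to 73.8 against 57.4 to 76.5 CPM. Of these 12 markers of other cell types, 6 passed the filter and were detected in Caco-2 libraries, with median levels of 33.8 CPM for COL1A1, 19.9 for PDGFRA, 8.66 for CSF1R, 5.75 for CD14, 4.93 for PECAM1 and 1.75 for CD3E. The other 6 had a median of 0, among them PTPRC at 0 in 64 of 66 libraries, MS4A1 in 65, COL1A2 in 64, CDH5 in 52 and ITGAX in 45. In PmOMV against PBS cells at 10 h, 0 of the 9 epithelial markers and 0 of the 6 tested markers of other cells were called.

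These calls depended on the set of libraries and on the replicate term. For HLA-E the set-aside PmOMV library at 10 h had 53.6 CPM and the set-aside PBS libraries 53.9 and 53.4 CPM, which shows no offset. HLA-E was not called without PBS replicate 3 (0.55, adjusted p = 0.0648), without the replicate block (0.50, adjusted p = 0.869) or with all libraries, set-aside ones included (0.35, adjusted p = 0.918 with the block), and TAPBP lost its call in the same settings and when any of PmOMV replicates 2 and 3 and PBS replicates 2 and 3 was left out (0.27 to 0.35, adjusted p up to 0.490). B2M was called without PBS replicate 3 (0.63, adjusted p = 0.0107) and was at 0.18 (adjusted p = 0.550) without PBS replicate 2.

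The vesicles of P. mirabilis carry endotoxin, and LPS in the medium was the matching reference. Of the 8 members HLA-E alone was called in PmOMV against LPSinc cells at 10 h, where 3.15% of all genes were called and 1.23% were higher. HLA-E had 90.7, 69.2 and 59.6 CPM in the PmOMV libraries, against 61.2 and 48.7 CPM in the LPSinc libraries. The highest LPSinc library lay just above the lowest PmOMV library, but the libraries with a shared replicate number differed by a log2 ratio of 0.57 and 0.51, and the fold was 1.38 (1.22 to 1.56, log2 0.47 ± 0.089, adjusted p = 0.000333). This call held when each of the 5 libraries was left out (0.38 to 0.53, adjusted p up to 0.0274), and not without the block (0.41, adjusted p = 0.594) or with all libraries (0.25). TAPBP stood at 0.23 ± 0.074 (adjusted p = 0.0687) and B2M at 0.23 ± 0.085 (adjusted p = 0.136), both uncalled. Of the 37 listed genes, IFNGR1 (0.45, adjusted p = 0.000368) and MICB, a stress ligand related to class I heavy chains (0.66, adjusted p = 0.0186), rose. In the same comparison 1 of the 9 epithelial markers, HNF4A, fell by 0.32 on the log2 scale (adjusted p = 0.00453), and 1 of the 6 tested markers of other cells, COL1A1, fell by 0.67 (adjusted p = 0.000519). The summed epithelial markers were at 8534 to 9467 CPM in PmOMV and 8292 to 8999 CPM in LPSinc libraries, and those of other cells at 53.6 to 73.8 and 56.6 to 86.8 CPM. Their part in the HLA-E call was not tested.

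LPS itself gave no call among all genes tested against PBS at 10 h, so 0% of genes and 0 members were called. HLA-E was at 0.07 ± 0.11 (interval -0.13 to 0.28), TAPBP at 0.09 ± 0.086 and B2M at 0.09 ± 0.098. The comparisons of PmOMV, LPSinc, LcMV and EfMV with PBS at 10 h share the same PBS libraries.

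At 24 h no member was called in PmOMV cells against PBS (0.109% of genes called) or against LPSinc (0.151%). HLA-E had 63.7 and 53.2 CPM in the PmOMV libraries, against 63.7 and 44.6 CPM in the PBS libraries, which overlapped. The difference between the PmOMV effects at 24 h and at 10 h was -0.43 ± 0.14 for HLA-E, with an unadjusted p of 0.00353 and an adjusted p of 0.548, so a smaller effect at 24 h was not established; 0.0312% of genes were called in that contrast. TAPBP had 137 and 162 CPM in the PmOMV libraries, against 111 and 135 CPM in the PBS libraries and 116 and 118 CPM in the LPSinc libraries. Both PmOMV libraries were above all of these and were again the highest of 12 groups for their replicate numbers. The log2 fold change of TAPBP at 24 h was 0.28 ± 0.082 against PBS (adjusted p = 0.322) and 0.33 ± 0.081 against LPSinc (adjusted p = 0.0577), close to the 0.32 at 10 h, and the difference between the times was -0.03 ± 0.11. Among the listed genes RELB, an NF-kB subunit, rose at 24 h, with 22.2 and 17.5 CPM in PmOMV libraries, against 10.3 and 8.86 CPM in LPSinc libraries and 8.36 and 8.24 CPM in PBS libraries (1.25 ± 0.24 against PBS, adjusted p = 0.00377).

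**Figure D3:**
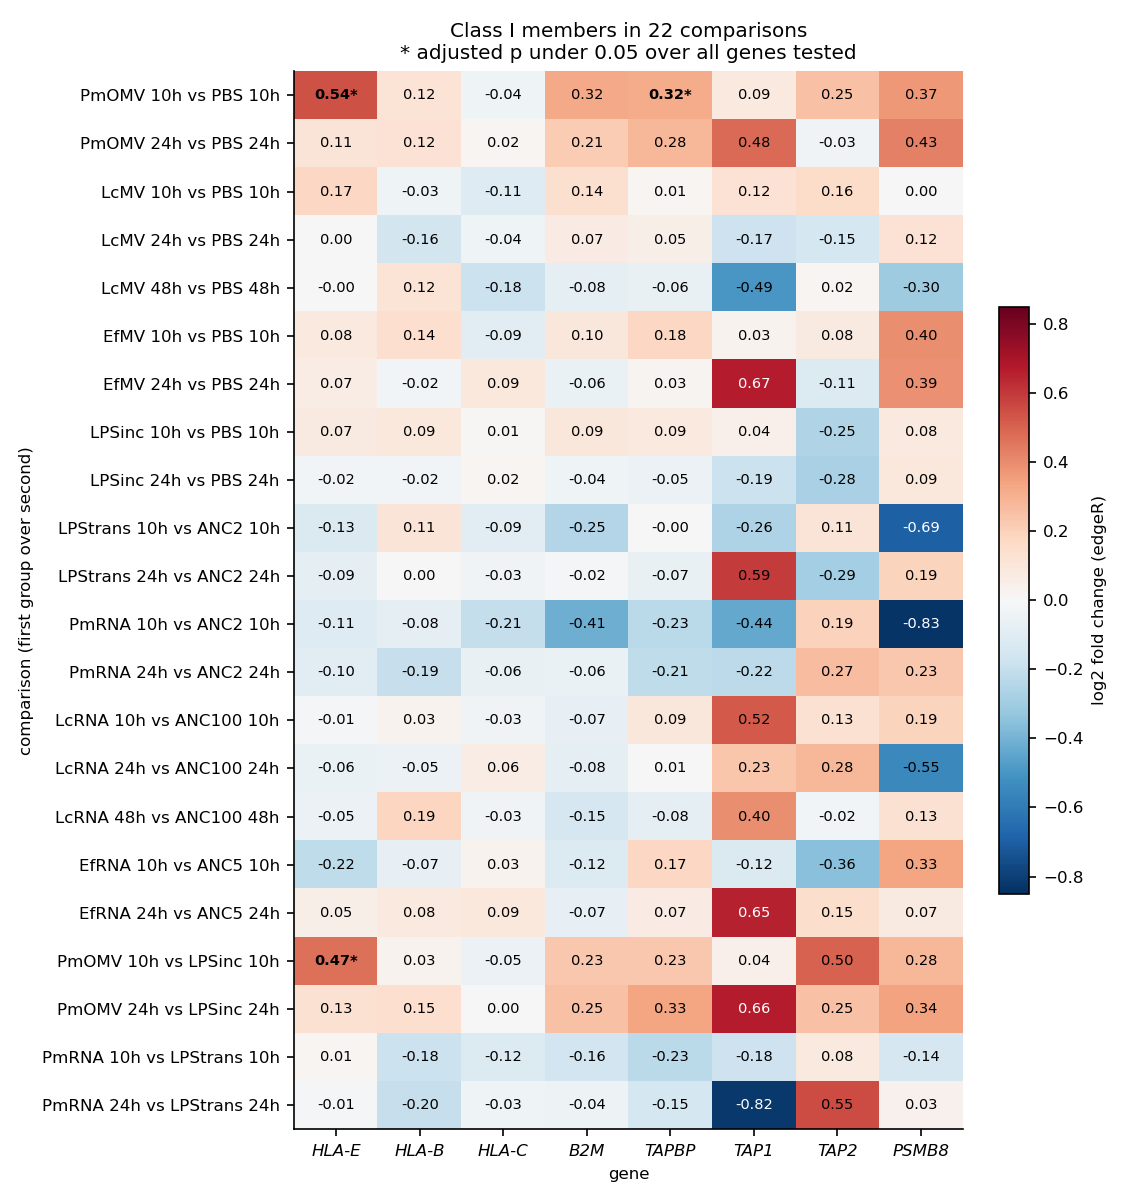
Log2 fold change (first group over second, colour and number) of the 8 tested members in columns, in the 22 comparisons of a treatment with its control or with LPS in rows, with an asterisk where the adjusted p was under 0.05. The marked cells are HLA-E (0.54) and TAPBP (0.32) in PmOMV against PBS cells at 10 h and HLA-E (0.47) in PmOMV against LPSinc cells at 10 h.

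Between vesicles of different species at 10 h, HLA-E and TAPBP rose in PmOMV against LcMV cells, 2 of 8 members where 0.442% of genes were called and 0.317% were higher. HLA-E had 62.1, 53.0 and 54.7 CPM in the LcMV libraries, below the PmOMV library of the same number in each of the 3 pairs (log2 ratios 0.55, 0.38 and 0.12), and the fold was 1.29 (log2 0.36 ± 0.079, adjusted p = 0.00664). TAPBP had 90.9, 116 and 120 CPM in the LcMV libraries, also below PmOMV in 3 of 3 pairs (0.43, 0.26 and 0.23), and the fold was 1.23 (0.30 ± 0.066, adjusted p = 0.00684). Against EfMV cells, where 0.879% of genes were called and 0.354% were higher, HLA-E alone rose, with 59.7 and 50.9 CPM in the EfMV libraries and a fold of 1.37 (0.46 ± 0.092, adjusted p = 0.00194), and TAPBP had an interval of 0.995 to 1.22-fold. IFNGR1 rose against LcMV (0.31, adjusted p = 0.0272) and against EfMV (0.43) as well, and COL1A1 fell by 0.59 against EfMV (adjusted p = 0.0150). Against LcMV the call of HLA-E was lost without PmOMV replicate 2, LcMV replicate 2 or LcMV replicate 3 (0.28 to 0.45 over all 6 libraries left out in turn), and that of TAPBP without replicate 2 of either group (0.27 to 0.33). Against EfMV the call of HLA-E was lost without PmOMV replicate 2 or either EfMV library (0.37 to 0.52). The particle doses differed between species, so dose and species cannot be told apart. At 24 h, and between LcMV and EfMV cells, 0 members were called (0.0676% of genes called against LcMV and 0.052% against EfMV at 24 h, and 0.0052% and 0.0104% between LcMV and EfMV at 10 and 24 h).

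The effect of the vesicles was then set against that of the RNA they carry. In PmRNA against ANC2 cells at 10 h 0 genes were called (909 genes, 2 of them members, had an unadjusted p under 0.05), and the estimates for 7 of 8 members were below 0. B2M had 69.7 and 83.6 CPM in the PmRNA libraries, against 92.3 and 109 CPM in the ANC2 libraries, and TAPBP had 83.3 and 92.9 CPM against 88.6 and 123 CPM. For B2M both PmRNA libraries lay below both ANC2 libraries, and for TAPBP the groups overlapped. The fold change of B2M had an interval of 0.645 to 0.876 (log2 -0.41 ± 0.11, adjusted p = 0.999). PmRNA replicate 3 held 632659 counts, the fewest of all kept libraries, and 54 counts of B2M. At 10 h B2M was higher in ANC2 than in PBS cells in both replicate pairs (log2 ratios 0.14 and 0.54), though not called. In LPStrans cells it was below ANC2 in both pairs (-0.27 and -0.23), also uncalled. By group mean B2M had 76.7 CPM in PmRNA and 81.4 CPM in PBS cells at 10 h.

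The difference between both effects, PmOMV against PBS minus PmRNA against ANC2, was tested as such. At 10 h it was above 0 for all 8 members and called for 3, where 0.161% of genes were called and 0.104% were above 0: B2M at 0.73 ± 0.14 (adjusted p = 0.00382), HLA-E at 0.65 ± 0.15 (adjusted p = 0.0363) and TAPBP at 0.54 ± 0.13 (adjusted p = 0.0338). For B2M and TAPBP it joined a positive estimate after vesicles to a negative one after RNA, and for HLA-E it came mostly from the vesicle side, since HLA-E stood at -0.11 ± 0.12 in PmRNA cells. At 24 h 0 members were called (0.0364% of genes), with TAPBP at 0.50 ± 0.11 (adjusted p = 0.0610). The call for B2M was lost without PmRNA replicate 2 or PBS replicate 2 (0.59 to 1.05 over 9 libraries), that for HLA-E without any library but PmOMV replicate 4 (0.56 to 0.79), and that for TAPBP without any but PmOMV replicate 4 and ANC2 replicate 2 (0.42 to 0.65). RNA was delivered with a transfection reagent and vesicles were not, so delivery and cargo cannot be told apart. The same differences for L. casei and E. faecalis gave 0 member calls (0% to 0.0988% of genes, 0.0208% for L. casei at 10 h).

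**Figure D4:**
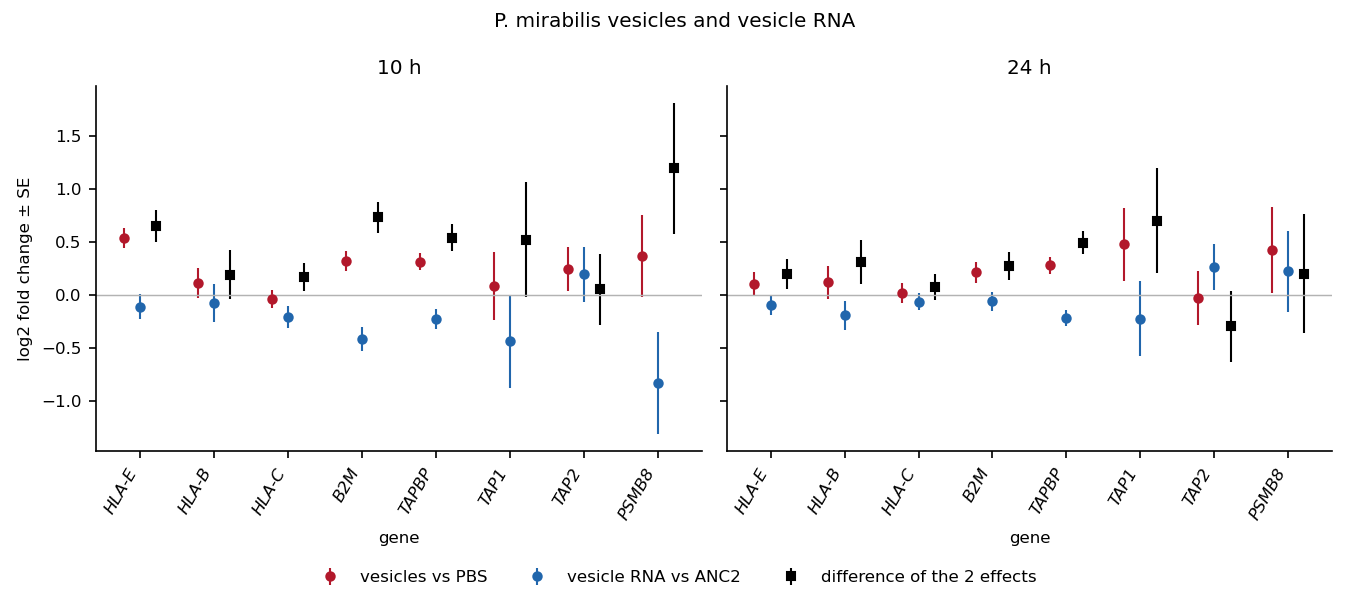
Log2 fold change of the 8 tested members at 10 h (left) and 24 h (right) for P. mirabilis vesicles against PBS (red), vesicle RNA against ANC2 (blue) and the difference of both effects (black squares), with SE as bars. At 10 h the difference lies above 0 for all 8 members and was 0.73 for B2M, 0.65 for HLA-E and 0.54 for TAPBP.

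The remaining treatments left the members uncalled. Of 22 comparisons of a treatment with its control or with LPS, 2 had a member called, and both were PmOMV comparisons at 10 h. In the other 20 the well-counted members (B2M, HLA-B, HLA-C, HLA-E and TAPBP) had log2 fold changes between -0.41 (B2M in PmRNA cells at 10 h) and 0.33 (TAPBP in PmOMV against LPSinc cells at 24 h), with a median SE of 0.096 and interval bounds from -0.63 to 0.49. TAP1, TAP2 and PSMB8 ranged from -0.83 to 0.67 with a median SE of 0.34, so changes of the size seen for HLA-E were not detectable for them at this depth. Vesicles of L. casei at 10 h (0.0468% of genes called against PBS) and 24 h (0.0052%), and those of E. faecalis at both times (0%), were among them. Vesicles of L. casei at 48 h, with 2.7% of genes called against PBS, gave 0 member calls as well. HLA-C was nearest among the well-counted members at -0.18 ± 0.093 (adjusted p = 0.318), and HLA-E was at 0.00 ± 0.10 (interval -0.20 to 0.20). In that comparison RELB rose by 1.13 on the log2 scale. Between siRNA controls and PBS 0 members were called at any time (0% of genes at 10 and 24 h, 0.25% at 48 h).

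The members were also compared between times within each control, where many genes of all kinds were called and the members' counts of 0 to 3 of 8 are to be read against those shares. In PBS cells at 48 h against 24 h, TAPBP (0.35 ± 0.085, adjusted p = 0.00177), HLA-E (0.36 ± 0.10, adjusted p = 0.00985) and HLA-C (0.26 ± 0.094, adjusted p = 0.0410) rose, where 16.7% of genes were called and 8.39% were higher. HLA-E had 79.0 and 68.3 CPM in PBS libraries at 48 h (replicates 2 and 5), against 63.7 and 44.6 CPM at 24 h (replicates 2 and 3). The groups did not overlap, but they share replicate 2 alone, and replicate 3 was low for HLA-E at other times too, so these levels mix time with replicate number; the fit adjusts for the number. The summed epithelial markers were at 5385 to 5997 CPM at 48 h, against 7557 to 8067 CPM at 24 h. KRT8 fell by 1.29, KRT18 by 1.40, EPCAM by 0.30 and CDH17 by 0.26 on the log2 scale, whereas CDH1 (0.41), HNF4A (0.30) and COL1A1 (0.34) rose. The part of these shifts in the members' rise was not tested. In ANC100 cells over the same interval HLA-E (0.38, adjusted p = 0.00302) and TAPBP (0.26, adjusted p = 0.0161) rose, where 14.5% of genes were called and 7.81% were higher, and there KRT8 fell by 0.80 and KRT18 by 0.75 while COL1A1 rose by 0.58. TAPBP was already higher at 24 h than at 10 h in ANC100 cells (0.31, adjusted p = 0.00128, 13.6% of genes called and 7.48% higher), ANC5 cells (0.41, adjusted p = 0.000190, 12.2% and 6.87%) and ANC2 cells (0.26, adjusted p = 0.0373, 6.25% and 3.45%), and was not called in PBS cells (0.25, adjusted p = 0.0593, 6.72% of genes called). COL1A1 rose in the same 24 h comparisons, by 1.02 in ANC100, 0.85 in ANC5, 0.84 in ANC2 and 1.23 in PBS cells. TAP2 fell by 0.85 ± 0.23 on the log2 scale in ANC5 cells (adjusted p = 0.00629). By group mean, HLA-E was as high in PBS cells at 48 h (73.6 ± 7.56 CPM, SD, n = 2) and ANC100 cells at 48 h (73.2 ± 3.42 CPM, n = 2) as in PmOMV cells at 10 h (73.1 ± 16.0 CPM, n = 3), and these groups overlapped; the lowest mean was 49.6 ± 3.01 CPM in PmRNA cells at 24 h (n = 3). TAPBP was highest by group mean in PmOMV cells at 24 h (149 ± 17.9 CPM, n = 2) and LcMV cells at 48 h (149 ± 12.5 CPM, n = 2) and lowest in ANC5 cells at 10 h (85.7 ± 4.68 CPM, n = 3).

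The replicate number moved the members as well. Between replicates 3 and 2, compared over all groups, 61.5% of all genes and 6 of 8 members were called: TAPBP (0.26), HLA-C (0.22), B2M (0.21) and HLA-B (0.12) were higher in replicate 3, and HLA-E (-0.26) and PSMB8 (-0.43) were lower. HLA-E at 10 h had a median of 51.8 CPM over the replicate 3 libraries and 60.3 CPM over the replicate 2 libraries, and TAPBP had 117 CPM in replicate 3 and 89.8 CPM in replicate 2. Libraries with the same number thus shared an offset, in opposite directions for HLA-E and TAPBP; that of TAPBP was close in size to its PmOMV effect of 0.32, and that of HLA-E was smaller than its PmOMV effect of 0.54. Of the variance of log2 CPM of TAPBP over the kept libraries, 38.4% went with time, 32.7% with the replicate number, 23.7% with the group within time and 4.21% was residual; for HLA-E these shares were 33.5%, 31.4%, 22.9% and 10.4%. For TAP1 the residual was 39.4%.

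**Figure D5:**
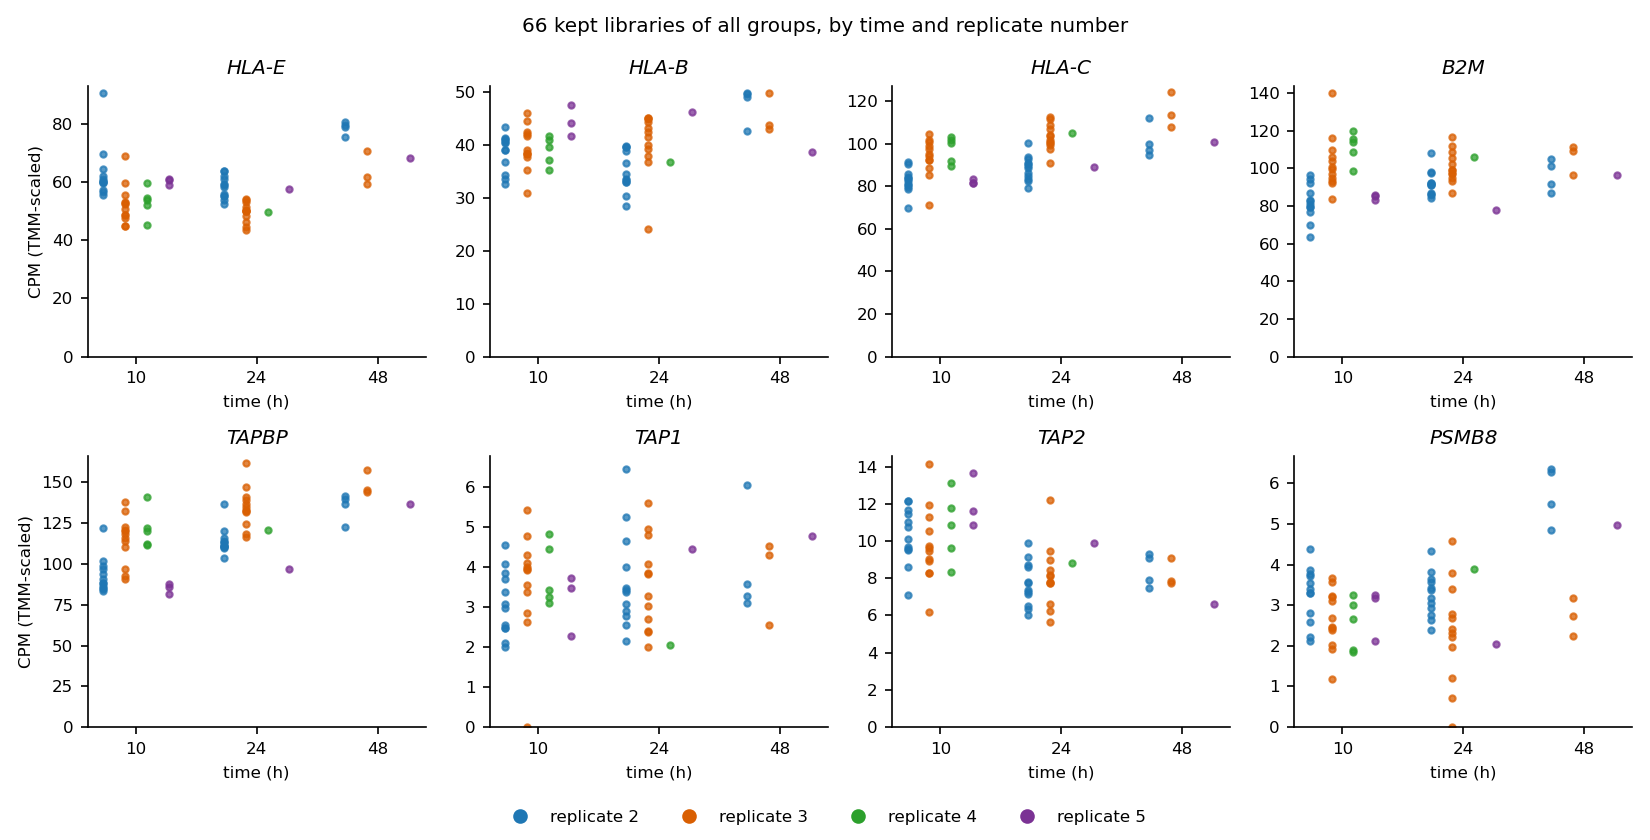
CPM of the 8 tested members in the 66 kept libraries, with 1 point per library placed by time in h and coloured by replicate number (2, 3, 4 or 5). HLA-E lies lower in replicate 3 than in replicate 2 at 10 h (medians 51.8 and 60.3 CPM), and TAPBP higher (117 and 89.8 CPM).

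The members' deviations were shared only in part. After the mean of each time and replicate number was removed, the Pearson correlation of log2 CPM over 63 libraries ranged from -0.08 (TAP1 with PSMB8) to 0.59 (B2M with HLA-E), with 0.54 between HLA-B and PSMB8. These points share library depth, and the mean deviation of the 8 members had a correlation of 0.42 with log2 total counts (0.31 for the 5 well-counted members). Averaged over the 5 well-counted members, the deviation was highest in PmOMV cells at 10 h (0.19, libraries 0.08 to 0.25) and at 24 h (0.16), and lowest in PmRNA cells at 10 h (-0.22). The genes whose deviations were most like those of the members' mean over the same 63 libraries were ENSG00000254461 (r = 0.749), ABHD8 (0.717), TARBP1 (0.706), ENSG00000262313 (0.703), PAGR1 (0.697), GAD1 (0.679), ZNF888 (0.675) and ENSG00000271155 (0.674).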

How the data were processed

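Total RNA of Caco-2 cells was depleted of ribosomal RNA and sequenced as paired ends on a DNBSEQ-G400. The authors aligned reads to GRCh38 with STAR and deposited raw counts per gene from featureCounts, with no strand option named. The counts were analysed as deposited, with 0 columns left unused. Members, gene lists and comparisons were chosen with earlier results of these data known. The 39 libraries of flow cell 1, lanes 2 to 4, were set aside. Genes were kept by filterByExpr (19233), libraries were scaled by TMM, and edgeR (4.0.16, R 4.3.3) fitted a quasi-likelihood model with 1 coefficient per group and the replicate number as a block. P-values were adjusted by Benjamini-Hochberg over all genes tested, with calls under 0.05. The biological coefficient of variation was 6.22%. SE was taken from the log2 fold change and its F statistic, and 95% intervals from the SE. Intervals and floors of single counts (3 counts for a 0) cover counting error only. Numbers paired the samples: same-numbered libraries deviated together in 39 of 39 contrasts (r of 0.235 to 0.676). Any 2 replicates differed by more than sampling noise (lowest chi-square per gene 1.35). The text names all members, and the listed genes that passed the test in a comparison or on which a result turns. Some listed genes are not reported here. Alternatives were no block, a block within each time, flow cell and lane as terms, all libraries, replicates 2 and 3 only, DESeq2 size factors, no filter, DESeq2 (1.42.0), limma voom (3.58.1), and each library left out. Gene positions are from GENCODE v44, and gene IDs matched it exactly for 62030 of 63241 genes. The fits were tested on simulated data.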

Additional observations from a re-analysis of the deposited data

Results flagged for a closer look

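The effect of P. mirabilis vesicles and that of their RNA differed at 10 h, by a test of the difference itself, for B2M (0.73 on the log2 scale, vesicle effect minus RNA effect), HLA-E (0.65) and TAPBP (0.54). For B2M the vesicle effect was 0.32 and the RNA effect -0.41. For TAPBP they were 0.32 and -0.23, and for HLA-E 0.54 and -0.11. The RNA effect is measured from ANC2, where B2M at 10 h was above PBS in both replicate pairs (log2 ratios 0.14 and 0.54). B2M was also lower in LPStrans than in ANC2 cells in both pairs (-0.27 and -0.23). The part of the ANC2 level in the RNA effect was not tested. The RNA side rests on 2 libraries, 1 of them with 632659 counts, and the part of depth in these differences was not tested. A single library standing apart within its group could be tested only in the 2 groups with 4 kept libraries, ANC100 and LcRNA at 10 h. In these 18 tests 0 did, where chance gives about 1 in 20. No P. mirabilis, PBS, ANC2 or LPS group was tested in this way.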

How the results depend on the processing

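The replicate block and the set of libraries decided the calls. Without the replicate block, 0 members were called in PmOMV against PBS cells at 10 h, in PmOMV against LPSinc cells at 10 h, between species and in the vesicle minus RNA differences, and 1 over time in controls; with all libraries all of these counts were 0, with or without the block (as reported: 2, 1, 3, 3 and 9). Without the block, 0.0884% of all genes were called in PmOMV against PBS cells at 10 h and 0.192% against LPSinc cells at 10 h. In PmOMV against PBS cells at 10 h, 1 member was called from replicates 2 and 3 only (0.562% of genes). Against LPSinc at 10 h, 3 were called with a block within each time, 2 with flow cell and lane and 2 with DESeq2. The shares of all genes called were 7.78%, 4.41% and 3.5% in these runs, beside 3.15% as reported. Against LPSinc at 24 h, 1 was called (0 as reported) with a block within each time, DESeq2 and voom, and without LPSinc replicate 2. Of all genes, 0.317% were called with the block within each time, 0.156% with DESeq2 and 0.151% with voom, beside 0.151% as reported. With no filter 5 were called over time. Counts pooled over several comparisons (species, differences and time) have no single share of all genes and show only how the calls moved. Leaving out 1 library at a time gave 1 to 2 members against PBS at 10 h, 1 to 1 against LPSinc at 10 h and 0 to 1 at 24 h. B2M against PBS at 10 h was called with a block within each time (0.31, adjusted p = 0.00661), flow cell and lane (0.0209), no filter (0.0407) and DESeq2 (0.0406). Over all genes that comparison called 209, against 17 without the block, 3 and 6 with all libraries, 704 with a block within each time, 358 with flow cell and lane and 116 from replicates 2 and 3. Direction was checked only for the members called as reported in the treatment, species and difference contrasts, and for B2M against PBS at 10 h. None of these reversed in any alternative run, and uncalled members were otherwise not checked. Of 174 values of single genes, 108 kept their side of the threshold, 61 lost and 5 gained a call. Depth left PSMB9 untested and gave TAP1, TAP2 and PSMB8 a median SE of 0.34.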
